A study of Homo sapiens with 3 samples.

Results

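The regions described here are the DDX6 eCLIP peaks that the authors' annotation placed at microRNAs. DDX6 is a DEAD-box RNA helicase of mRNA repression and decapping, and a core component of P-bodies. The members were all lines of the 2 deposited peak lists whose leading annotation was the class miRNA, meaning that the peak touches an annotated microRNA hairpin, or the class miRNA_proximal, meaning a position near one. The distance that defines miRNA_proximal is not given in the sources used here. No threshold on fold or p was applied in choosing them. They came to 292 of 185709 peaks, of which 154 were class miRNA (90 in immunoprecipitation (IP) replicate 1 and 64 in IP replicate 2) and 138 were class miRNA_proximal (93 and 45). The hairpin class carried 82 microRNA names and the proximal class 86, and 22 names were in both.

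All libraries came from MOLM-13, an established human acute myeloid leukaemia cell line, with no genotype change or treatment in the labels. There were 2 DDX6 IP libraries and 1 input library, made without the antibody, and both IP libraries are compared with that same input. The labels do not say that the IP libraries came from separate cultures, so any spread between them may be technical. In the input, 10 of 10 blood and myeloid marker genes had at least 10 exonic reads (122 to 1875 reads), against 1 of 10 markers of other cell types (COL1A1, 27 reads), of which 8 were at 0.

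MicroRNAs are cut from long primary transcripts, as a hairpin by DROSHA with DGCR8 and then by DICER1, and the mature strand guides Argonaute proteins to partly complementary mRNAs. Argonaute binds the TNRC6 proteins, which recruit the CCR4-NOT deadenylase complex. DDX6 binds the CNOT1 scaffold of that complex, which places it at the repression and decapping step of microRNA targets. A peak on a hairpin can hold reads from the mature strand, the hairpin, the primary transcript or, where the hairpin lies inside a gene, from that gene's own RNA, and the peak lists do not separate these.

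A log2 fold of IP over input of at least 3 with a -log10 p of at least 3 was reached at 12 hairpins. Of these, 8 lie outside mRNA exons (let-7f-1, mir-155, mir-210, mir-222, mir-223, mir-23a, mir-27a and mir-5100) and 4 inside them (mir-3610, mir-3917, mir-6125 and mir-6821). The mature sequences of 11 are shown, because 5 hairpins of the first group (mir-27a, mir-23a, mir-5100, mir-155 and mir-223) had sites of 21 to 25 bases, close to the length of a mature strand. They are taken 5′ to 3′ from RefSeq (GRCh38.p14), and the capitals mark the seed, bases 2 to 8, which pairs with targets. Both arms are given where RefSeq lists both, since the arm under a peak could not be assigned without a genome of the files' build.
miR-27a-5p: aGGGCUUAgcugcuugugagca
miR-27a-3p: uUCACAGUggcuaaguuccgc
miR-23a-5p: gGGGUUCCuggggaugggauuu
miR-23a-3p: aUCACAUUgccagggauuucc
miR-222-5p: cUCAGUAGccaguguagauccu
miR-222-3p: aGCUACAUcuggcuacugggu
miR-155-5p: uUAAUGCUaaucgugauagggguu
miR-155-3p: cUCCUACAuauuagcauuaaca
miR-223-5p: cGUGUAUUugacaagcugaguu
miR-223-3p: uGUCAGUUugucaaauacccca
miR-210-5p: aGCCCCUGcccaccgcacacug
miR-210-3p: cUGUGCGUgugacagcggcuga
let-7f-5p: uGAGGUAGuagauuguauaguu
let-7f-1-3p: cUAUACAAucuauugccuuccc
miR-5100: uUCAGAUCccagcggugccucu
miR-3917: gCUCGGACugagcagguggg
miR-6125: gCGGAAGGcggagcggcgga
miR-6821-3p: uGACCUCUccgcuccgcacag

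Of the 82 hairpin names, 71 were matched in the RefSeq table by symbol, giving 109 distinct mature names. The largest group with a common seed was GAGGUAG of the let-7 family, held by 8 hairpins with a peak, of which 5 also shared UAUACAA on the other arm. The seed AAAGUGC was held by mir-17, mir-20a, mir-93 and mir-106b. Pairs also shared GCUACAU (mir-221 and mir-222) and AGCAGCA (mir-15a and mir-16-1). These groups are shown because their members recur through the results.
let-7a-5p: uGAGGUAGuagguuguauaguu
let-7b-5p: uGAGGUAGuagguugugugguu
let-7g-5p: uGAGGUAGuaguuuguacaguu
let-7i-5p: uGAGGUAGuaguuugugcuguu
miR-17-5p: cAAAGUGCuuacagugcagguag
miR-20a-5p: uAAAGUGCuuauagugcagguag
miR-93-5p: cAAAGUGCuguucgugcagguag
miR-106b-5p: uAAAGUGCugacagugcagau
miR-221-3p: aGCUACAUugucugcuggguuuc
miR-15a-5p: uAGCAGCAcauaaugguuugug
miR-16-5p: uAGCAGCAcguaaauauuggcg
Since let-7a-5p is the same sequence from 3 hairpins, and other let-7 members differ from it at few positions, reads of a mature strand may be split among these loci or assigned to the wrong one. How the authors placed such reads is not given in the sources used here.

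As a whole, neither class stood above the other peaks. The median log2 fold of class miRNA was 1.34 in the first IP library and 1.79 in the second, and that of class miRNA_proximal 0.33 and 1.504, against 1.77 and 2.29 for all peaks. Both thresholds were passed by 8 of 90 miRNA peaks (8.89%) and 1 of 93 miRNA_proximal peaks (1.08%) in IP replicate 1, where 11.5% of all peaks passed. In IP replicate 2 they were passed by 9 of 64 (14.1%) and 4 of 45 (8.89%), where 12.9% of all peaks passed. The share of hairpin peaks past the thresholds was therefore near the background in both lists. A -log10 p of at least 3 alone was reached by 24 miRNA and 3 miRNA_proximal peaks in IP replicate 1 (35.1% of all peaks), and by 20 and 6 in IP replicate 2 (24.3% of all peaks).

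At the lower end, a fold below 0, more reads in the input, was listed for 19 of 90 miRNA peaks (21.1%) and 39 of 93 miRNA_proximal peaks (41.9%) in IP replicate 1, beside 6.77% of all its peaks. In IP replicate 2 the counts were 13 of 64 (20.3%) and 7 of 45 (15.6%), beside 2.92%. Peaks in exons of non-coding RNAs had similar shares below 0 to class miRNA, 20.3% and 22.4%, and peaks deep in introns had 26.4% and 4.14%. Every peak with a fold below 0 is listed with a -log10 p of 0 in these files. Peaks are regions of the same 2 libraries and not replicates, so no test was made between the classes. The lists give no read number per peak, and hence no interval for a single fold. An identical fold was shared with another member of the same list by 91 of 183 members (49.7%) in IP replicate 1 and 44 of 109 (40.4%) in IP replicate 2.

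Behind the hairpin class stood 3 kinds of location, which were separated after the values had been seen, from the other annotations that the authors list for each peak. Of the 154 hairpin peaks, 19 at 6 names also lay on a small nucleolar RNA, 50 at 32 names lay on a coding or untranslated exon of an mRNA, and the other 85 at 44 names on neither. The small nucleolar group (mir-1248 at SNORA81, mir-1291 at SNORA2C, mir-3651 at SNORA84, mir-3653 at SNORD125, mir-664a at SNORA36B and mir-664b at SNORA36A) was low, with a median of -2.12 in IP replicate 1 and -1.58 in IP replicate 2. Small nucleolar RNAs guide chemical modification of ribosomal RNA in the nucleolus. Of these 19 peaks, 17 were below 0, and the lowest member of all, -3.36, was on mir-664b. The mRNA exon group had medians of 1.55 and 2.16 with 2 of 50 peaks below 0, and the third group 1.59 and 2.32 with 13 of 85 below 0.

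**Figure D1:**
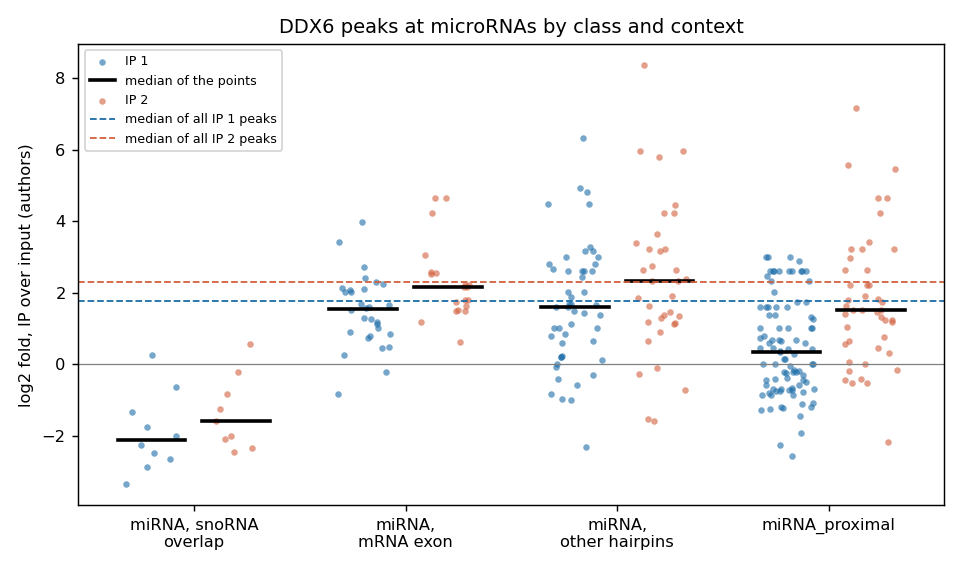
Each point is the authors' log2 fold of IP over input for 1 peak (vertical axis), by class and annotation (horizontal axis), blue for IP replicate 1 and red for IP replicate 2; black bars are medians of the points and dashed lines the medians of all peaks, 1.77 and 2.29. Points of the small nucleolar group lie mostly below 0. The highest point, 8.37, belongs to a hairpin outside mRNA exons, and the miRNA_proximal points reach 7.17.

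Within the third group the position inside the hairpin divided the values. Peaks lying wholly inside a hairpin numbered 56 at 35 names and had a median of 1.95 in IP replicate 1 and 2.95 in IP replicate 2. Of them 12 passed both thresholds, 6 of 34 (17.6%) in IP replicate 1 and 6 of 22 (27.3%) in IP replicate 2. Over all peaks the shares were 11.5% and 12.9%, and 4 of the 12 peaks lay on mir-27a. A fold below 0 was listed for 4 of the 56, 5.88% and 9.09% by library, beside 6.77% and 2.92% of all peaks. Peaks lying only partly inside numbered 29, with medians of 0.17 and 1.34, and 1 of them passed (mir-210 in IP replicate 2). The median length was 21 bases for the first and 73 bases for the second.

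The mir-27a hairpin (MIR27A, chromosome 19, minus strand) had the highest log2 fold of all members in each list. The cluster mir-23a, mir-27a and mir-24-2 is transcribed as 1 primary RNA and is known from myeloid differentiation. On mir-27a, IP replicate 1 had adjoining peaks at chr19:13947261-13947268 (hg19), with a log2 fold of 4.82 and a -log10 p of 16.5, and at chr19:13947269-13947282, with 6.33 and 17.7. IP replicate 2 had 5.78 with a -log10 p of 62.1 and 8.37 with 43.9 over the same 22 bases. Both libraries thus marked 1 stretch whose length equals that of miR-27a-5p printed above and exceeds that of miR-27a-3p by 1 base. This length does not assign the arm. On mir-23a the folds were 2.67 and 2.59 over 23 bases in IP replicate 1 and 3.38 over 21 bases in IP replicate 2. On mir-24-2 the single peak, in IP replicate 1, had 2.01 with a -log10 p of 1.01.

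The mir-222 and mir-221 hairpins lie as a pair on the minus strand of the X chromosome, and their products are known regulators of the KIT receptor. On mir-222 the fold was 4.47 (-log10 p 12.5, 30 bases) in IP replicate 1 and 5.96 (7.61, 51 bases) in IP replicate 2. A further mir-222 peak that runs out of the hairpin had 0.22 and 1.47. On mir-221 the folds were 1.69 in IP replicate 1 and 4.23 and 3.23 in IP replicate 2, none with a -log10 p of 3.

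The mir-5100 hairpin (chr10:43493079-43493101 in IP replicate 1, hg19, plus strand) had 4.47 (-log10 p 4.35) in IP replicate 1 and 5.96 (7.61) in IP replicate 2, each over 23 bases. These folds equal those of mir-222 in both lists, and the -log10 p of the 2 hairpins differs in IP replicate 1 only. On let-7f-1 the fold was 4.92 (-log10 p 6.14) over 29 bases in IP replicate 1, with no peak in IP replicate 2. On mir-155, a microRNA of immune activation, it was 3.27 (7.35) over 25 bases, again in IP replicate 1 alone. IP replicate 2 holds 1244213 counted reads against 4643494 in IP replicate 1, and a missing peak in it does not show that the RNA was not bound.

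Outside mRNA exons, 3 hairpins passed the thresholds in IP replicate 2 alone. They were mir-23a, described above, mir-210, a microRNA known for its induction in low oxygen, and mir-223, a marker of the myeloid lineage. On mir-210 the fold was 3.18 (-log10 p 2.88) in IP replicate 1 and 4.45 (4.57) in IP replicate 2, over 93 and 108 bases of which 22 and 39 were in the hairpin. On mir-223 it was 1.14 (1.06) and 3.16 (4.71), over 24 and 25 bases. The hairpin mir-142, whose products are restricted to blood cells, stayed under the fold threshold with 1.66 and 2.01 in IP replicate 1 and 2.74 in IP replicate 2, although its -log10 p reached 7.79 and 16.02. That site was 25 and 26 bases long. A further mir-142 site that runs out of the hairpin had 0.21 over 109 bases and -0.11 over 92 bases.

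The hairpin peaks were then set against other peaks on the same strand within 1000 bases that did not touch a hairpin, a comparison chosen after the values had been seen. Such neighbours may lie on the same primary transcript as the hairpin, which was not checked for each locus. In IP replicate 1, 30 names outside mRNA exons had a peak wholly in the hairpin and 19 of these had such a neighbour. The median of the peaks wholly in the hairpin was above that of the neighbours in 18 of 19 and above every neighbour in 16 of 19. Peaks of the third group lying only partly inside a hairpin (median 0.17 in IP replicate 1) were left out on both sides. Over these 19 names the median was 2.01 for the hairpins and -0.62 for their neighbours. The median difference within a locus was 2.30, from -0.89 to 5.88. In IP replicate 2 only 5 of 18 names had a neighbour, and the hairpin was above the neighbour median in 5 of 5, by a median of 1.54.

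The loci show the same values singly. At mir-155 in IP replicate 1 the hairpin had 3.27, and the peaks on either side had -0.25 and -1.09. At mir-222 the hairpin had 4.47 and the peak between mir-222 and mir-221 had -0.73. At let-7f-1 the hairpin had 4.92 and the neighbour, in an exon of the host RNA MIRLET7A1HG, -0.45. At the mir-23a, mir-27a and mir-24-2 cluster the neighbours, downstream of the hairpins, had -0.44 and -0.16. The exception was mir-103a-1, at 3.01 against 3.90 for the median of its 3 neighbours, which are peaks of the gene PANK3. Cluster members share neighbours (mir-23a, mir-27a and mir-24-2 for example), so the 19 names are not independent.

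**Figure D2:**
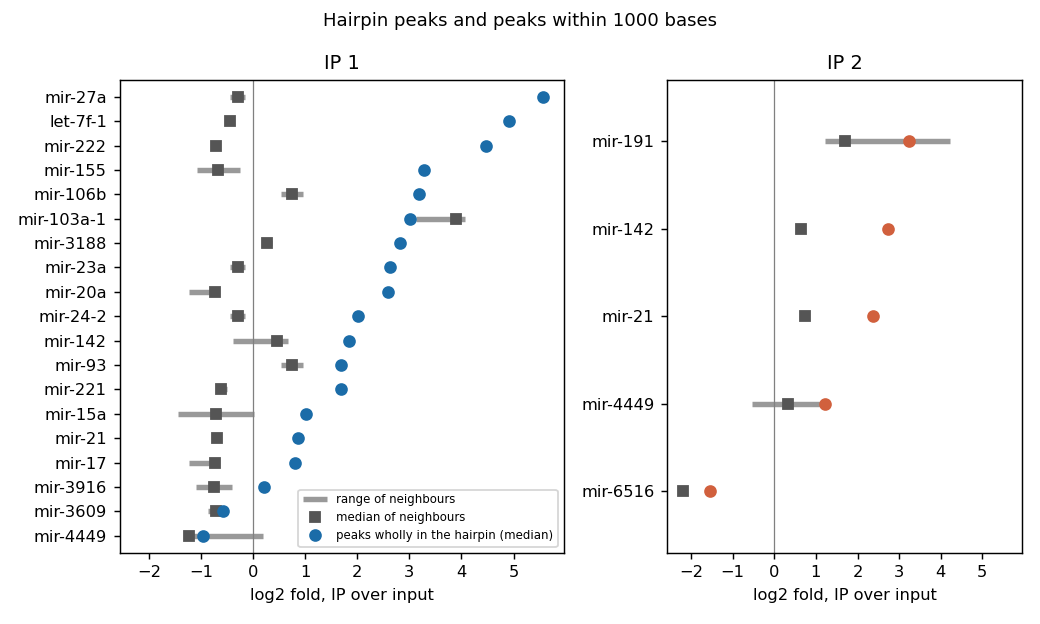
For each microRNA with a neighbour, the circle is the median log2 fold of IP over input (horizontal axis) of peaks wholly inside the hairpin. The square is the median and the grey bar the range of peaks within 1000 bases on the same strand that touch no hairpin. IP replicate 1 (19 names) is on the left and IP replicate 2 (5 names) on the right. The circle lies right of the square in all names but mir-103a-1.

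**Figure D3:**
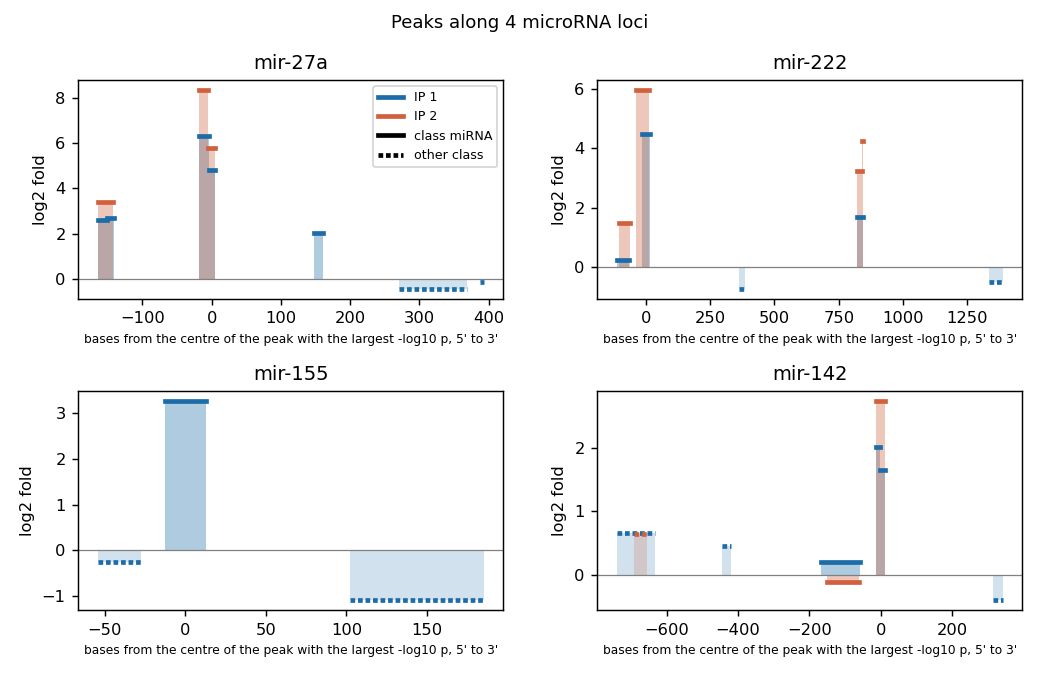
Peaks along 4 loci, drawn to scale as bars at their log2 fold (vertical axis) against distance in bases from the peak with the largest -log10 p (horizontal axis), blue for IP replicate 1 and red for IP replicate 2, solid for peaks on a hairpin and dotted for others. Short tall bars lie on the hairpins (up to 8.37 at mir-27a), and the dotted bars lie between -1.09 and 0.66.

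The sites inside hairpins were also shorter than the other members. Touching lines of 1 list were merged to sites, because the lists divide some peaks. Sites wholly inside a hairpin and outside mRNA exons numbered 45, with a median of 23 bases, and 21 of them (46.7%) were 19 to 26 bases long. Among hairpin sites in mRNA exons 2 of 48 (4.17%) had such a length, among the small nucleolar sites 0 of 13, and among proximal sites 12 of 131 (9.16%), with medians of 58, 79 and 53 bases. Because a site inside a hairpin cannot be longer than the hairpin, part of the contrast with the longer groups is set by the grouping. Compared with the RefSeq length of the same microRNA, 12 of 26 sites in IP replicate 1 and 8 of 18 in IP replicate 2 were within 3 bases of a mature strand. Sites near the mature length had a median highest fold of 1.85 and 3.27 in IP replicates 1 and 2, and the others 1.95 and 2.32, so the 2 libraries gave opposite orders.

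**Figure D4:**
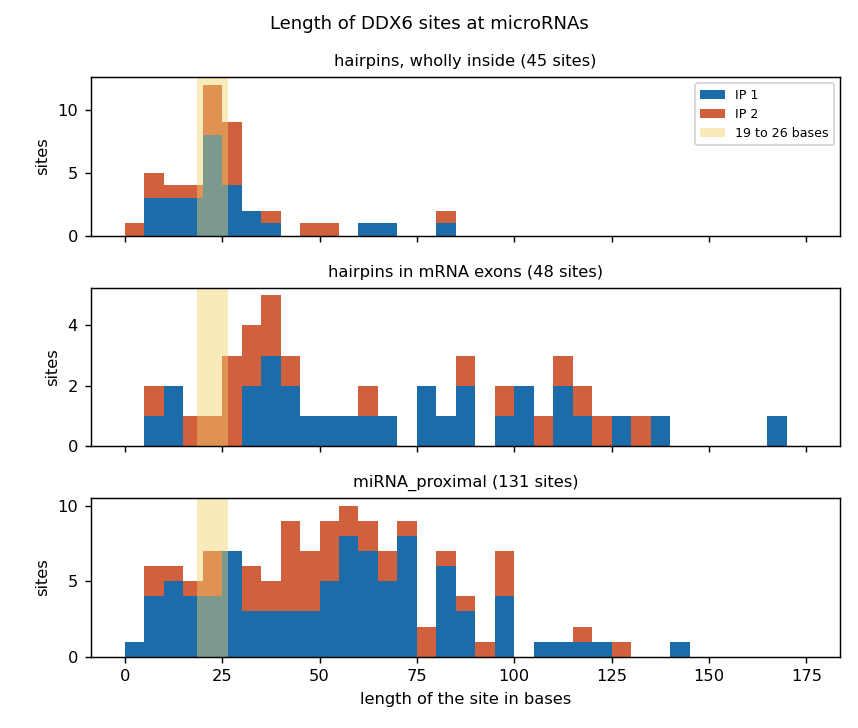
Number of sites (vertical axis) by length in bases (horizontal axis) for hairpin sites lying wholly inside (top), hairpins in mRNA exons (middle) and miRNA_proximal sites (bottom), stacked by IP replicate, with 19 to 26 bases shaded. The top group peaks in the shaded range with 21 of 45 sites.

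Among microRNA families, let-7 hairpins, known for promoting differentiation and restraining growth genes, had peaks at 8 of 12 listed loci. The 9 peaks in IP replicate 1 ran from 1.01 (let-7a-3) to 4.92 (let-7f-1), median 1.59, and none was below 0. Single values there were 1.39 for let-7a-1, 1.59 for let-7a-2, 1.88 for let-7b and 1.42 for mir-98, and let-7i had 2.82 and 2.59. IP replicate 2 had 3 peaks, at 3.64 (let-7b), 4.23 (let-7g) and 2.32 (let-7i). Only let-7f-1 passed both thresholds.

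The oncogenic mir-17-92 cluster and its paralogues, which promote proliferation, had hairpin peaks at 6 of 15 listed loci, none past both thresholds. The values were 0.80 and 2.64 for mir-17, -0.31 and 0.64 for mir-18a, and 2.59 and 1.38 for mir-20a in IP replicates 1 and 2. With 1 list each, mir-106b had 3.18 and mir-93 1.69 in IP replicate 1, and mir-19a 1.64 in IP replicate 2. The 3 proximal peaks along that cluster, which the annotation names for mir-17, mir-18a, mir-19a, mir-19b-1, mir-20a and mir-92a-1 jointly, lay at -1.23, -0.74 and -0.69 in IP replicate 1. IP replicate 2 listed no proximal peak there.

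Of 38 microRNAs listed as known in blood cells and myeloid leukaemia, 12 had a hairpin peak. Besides those already given, mir-21 had 0.86 and 2.38, mir-15a 1.01 and 2.32, mir-16-1 0.65 and 1.86, and mir-22 0.01 and 2.64 in IP replicates 1 and 2. Each was lower in the first list, as was the median of all peaks. Proximal peaks of this list in IP replicate 1 had a median of -0.39, with 9 of 13 below 0, among them mir-21 at -0.70 and mir-16-1 at -1.45. The 4 in IP replicate 2 lay between 1.504 and 7.17, the lowest at mir-9-3 (1.37 in IP replicate 1).

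Hairpins inside mRNA exons formed a separate set, where the peak may belong to the mRNA. On mir-3610, in the 5′UTR of the cohesin subunit RAD21 on chromosome 8, the fold was 3.98 (-log10 p 51.4) in IP replicate 1 and 2.58 (11.4) in IP replicate 2. On mir-3917, in the 5′UTR of the microtubule regulator STMN1, it was 2.71 (9.86) and 3.06 (6.996). On mir-6125, at the coding sequence of the deubiquitinase USP15, it was 3.41 (11.6) in IP replicate 1 alone. On mir-6821, at the coding sequence of the kinase PIM3, it was 4.23 (9.01) in IP replicate 2 alone, with 6 of 18 bases in the hairpin. The sites on mir-3610, mir-3917 and mir-6125 were 33 to 101 bases long.

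Membership in class miRNA often rested on few bases. There were 21 peaks at 15 names with at most 5 bases in a hairpin and the larger part of the peak outside it, and 14 of them lay on mRNA exons, such as mir-6807 at TRIM28 with 2 of 29 bases and a fold of 2.56. Over the whole class 52.1% of peak bases lay in a hairpin, 20.0% near one and 15.9% in coding sequence. Among members with a -log10 p of at least 3, the lowest folds were on mir-1248 (0.55), mir-4449 (1.13), mir-7705 in the 3′UTR of PABPC1 (1.17), mir-632 at ZNF207 (1.26) and mir-3652 at HSP90B1 (1.48). The hairpin mir-4449 differed in sign between libraries, at -0.84 and -0.97 in IP replicate 1 and at 1.18, 1.13 and 1.29 in IP replicate 2.

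In class miRNA_proximal 3 names passed both thresholds. Of its peaks, 43 of 93 in IP replicate 1 and 22 of 45 in IP replicate 2 lay in an intron or at a splice site of an mRNA gene. At mir-181b-1, of a family known in blood cell development, IP replicate 1 had 2.33 on both of its adjoining peaks (-log10 p 2.41 each) and IP replicate 2 had 5.58 (16.5) and 7.17 (18.46). They cover chr1:198827555-198827577 (hg19, minus strand). At mir-455, in an intron end of the collagen gene COL27A1, the folds were 3.01 (1.35) and 5.45 (5.17), the latter over 22 bases. At both names the site was as short as the hairpin sites above, in both libraries.

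At mir-5087 the peak lay on RNVU1-21, a variant gene of the U1 spliceosomal RNA, with 3.01 (17.8) over 59 bases and 3.42 (17.03) over 42 bases. U1 has near-identical copies, and reads may have been assigned among them. Next in IP replicate 1 were peaks at mir-4747 with 2.47 and 2.88 (2.96 in IP replicate 2), which stayed under the fold threshold. The lowest proximal peak was at mir-3651, on SNORA84, with -2.58 in IP replicate 1.

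By position, class miRNA recurred between the lists more than class miRNA_proximal. Of the miRNA peaks, 54 of 90 in IP replicate 1 and 53 of 64 in IP replicate 2 overlapped a peak of the other list by at least 1 base on the same strand. For miRNA_proximal the counts were 22 of 93 and 20 of 45, and for all peaks 28.3% and 50.6%. The folds of both lists rest on the same input and are therefore given only side by side. The authors' deposited table of 1587 reproducible peaks touched members at 4 places, which were both mir-27a peaks (7.35 and 5.30 in the authors' deposited table), mir-3610 (3.23) and mir-5087 (3.39).

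Read counts gave a second view, over whole genes. They were compared between the IP libraries and the input with edgeR, on exonic reads. The 52 microRNA genes that could be matched by symbol held 160 and 100 reads in the first and second IP library and 107 in the input. Relative to exonic reads this was 51.0 reads in 1000000 (exact 95% interval 43.4 to 59.5), 128 (104 to 156) and 44.7 (36.6 to 54.0). With this denominator the interval of IP replicate 2 lay above that of the input and the interval of IP replicate 1 overlapped it. Without MIR27A the shares were 36.6, 59.1 and 41.3, and both IP intervals (30.2 to 44.0 and 43.2 to 78.8) overlapped that of the input (33.6 to 50.3). Over all counted reads, intronic ones included, the 52 genes stood at 34.5 (29.3 to 40.2), 80.4 (65.4 to 97.8) and 13.7 (11.2 to 16.6) reads in 1000000, and both IP intervals lay above the input. They also did so without MIR27A, at 24.8 (20.4 to 29.7) and 37.0 (27.1 to 49.3) against 12.7 (10.3 to 15.4). Whether the share was higher in the IP therefore depended on the denominator, apart from that of all 52 genes in IP replicate 2.

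Only 3 microRNA genes had at least 10 reads in at least 2 libraries, beside 10392 genes tested in all, of which 16.7% were called higher and 11.4% lower in the IP. MIR27A had 45 reads in the first IP library, 54 in the second and 8 in the input, or 13.9, 67.2 and 3.57 CPM, counts per 1000000 reads after TMM scaling of the exonic total. Both IP values were above the input, by 1.71 and 3.91 on the log2 scale. Its fitted log2 fold was 3.25 (SE 0.63, edgeR adjusted p 3.23e-05), and DESeq2 did not call it (adjusted p 0.172). MIR5100 had 11, 10 and 0 reads, which is at least 2.53-fold higher than a floor of 3 input reads in the first IP library and at least 9.30-fold higher in the second (edgeR adjusted p 0.00245). MIR23A had 25, 13 and 22 reads and was not called (log2 fold 0.09, edgeR adjusted p 0.924), with the input between the 2 IP values of 7.70 and 16.2 CPM.

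Host RNAs of microRNAs, the long transcripts from which hairpins are cut, were mostly lower in the IP where they could be tested. Of 23 listed, 12 had enough reads in at least 1 of their entries. The 12 include SNHG14, whose symbol names it a host gene of small nucleolar RNAs rather than of microRNAs. By edgeR with TMM scaling, 10 of the 12 were called lower and 0 higher, beside 11.4% and 16.7% of all genes tested. The number called higher was also 0 at an unadjusted p under 0.05 and by DESeq2, but 1 (SNHG14) with reads scaled to library size alone. Counted by table entry, 12 of 14 were lower and the median log2 fold was -2.34, beside 0.00 over all genes tested. The lowest p-values were those of MIR17HG, DLEU2, MIRLET7BHG and MIR222HG. MIR17HG had 112, 28 and 384 reads, or 34.5, 34.8 and 171 CPM, and fell by 2.31 on the log2 scale (SE 0.27, edgeR adjusted p 1.35e-10), and a second entry of that name had 28, 18 and 302 reads. DLEU2, host of mir-15a and mir-16-1, had 35.4, 46.0 and 202 CPM, MIRLET7BHG 30.2, 62.2 and 220, and MIR222HG 29.9, 34.8 and 134, with both IP libraries below the input in each.

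At clusters where hairpins and host could both be read, MIR23AHG had 14.8 and 16.2 CPM in the IP libraries and 81.6 in the input. With TMM scaling in edgeR, MIR27A of that cluster was called higher in the IP and MIR23A was not called. DESeq2 did not call MIR27A. MIR155HG had 12.9 and 6.22 against 43.7, and the mir-155 hairpin peak stood at 3.27. The lower call of MIR155HG was lost with DESeq2 (adjusted p 0.0603) and with reads scaled to library size alone (log2 fold -0.75, edgeR adjusted p 0.0939). MIR142HG had 150 and 193 against 386 (log2 fold -1.19, edgeR adjusted p 6.74e-05), a direction that turned to 0.04 when reads were scaled to library size alone, which moved the median of all genes to 1.24. SNHG14 and MIR4435-2HG were not called with TMM scaling. With library size alone, SNHG14 was called higher (log2 fold 0.999, edgeR adjusted p 0.00375) and 9 of 14 host entries lower. How a read lying in both a hairpin and its host was counted is not stated, so the reads of such pairs may not be fully separate.

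**Figure D5:**
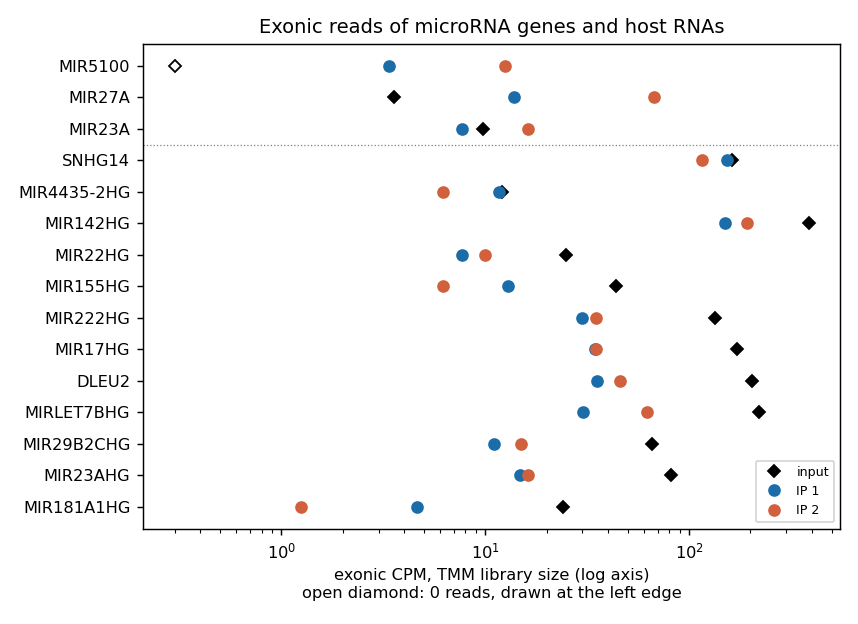
Exonic CPM (horizontal log axis), for the 3 microRNA genes tested (above the dotted line) and 12 listed host RNAs. Each has 1 point per library: blue IP replicate 1, red IP replicate 2, black diamond input (open where 0 reads). For all 12 host RNAs drawn both IP points lie left of the input, though 2 of them (SNHG14 and MIR4435-2HG) were not called, and for MIR27A and MIR5100 both lie right of it.

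Of 13 machinery genes, whose mRNAs encode the microRNA pathway, 4 were higher and 1 lower in the IP (30.8% and 7.69%). Over all genes tested the shares were 16.7% and 11.4%. The mRNAs that were higher were those of the Argonaute AGO2 (log2 fold 1.12, edgeR adjusted p 0.000628), the nuclear processing enzyme DROSHA (1.20, 0.00122), the Argonaute partner TNRC6A (0.99, 0.00201) and DICER1 (0.80, 0.0118). AGO2 had 341 and 364 CPM in the IP libraries and 161 in the input. AGO3 was lower by a log2 fold of -0.67 (edgeR adjusted p 0.0406) and at 0.57 under library size alone. Of these 5 calls, that of AGO2 was the one DESeq2 also made.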

How the data were processed

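DDX6 eCLIP of MOLM-13 cells gave 2 IP libraries and 1 input. The submitters' processing notes name cutadapt, UMI-tools, SAMtools and STAR, and genome hg19. For tool versions, peak calling, annotation and strand, the entry is: not given in the sources used here. Each peak of the 2 lists deposited by the authors has a -log10 p (highest value 400) and a log2 fold of IP over input, units read from the values. The authors also deposited raw read counts per gene and region.

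Members, lists and contrasts were chosen with earlier results of these data known. Named were microRNAs past both thresholds, members of 3 microRNA lists, the 5 lowest folds with a -log10 p of at least 3, and up to 4 host or machinery RNAs per direction by p. Touching peaks of 1 list and strand were merged to sites. Genes whose exonic reads reached 10 in at least 2 libraries were tested with edgeR 4.0.16 (quasi-likelihood, TMM, Benjamini-Hochberg, adjusted p under 0.05) in R 4.3.3, with DESeq2 1.42.0 as an alternative. With 1 residual degree of freedom, the spread is that between the 2 IP libraries, and the lone input is assumed to vary like them. Depth was 4643494, 1244213 and 7807540 counted reads. Intervals and floors cover counting error only. In simulated data with 10139 genes tested, 15.8% of 2-fold and 94.4% of 4-fold changes were recovered. Mature sequences came from RefSeq GRCh38.p14.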

Additional observations from a re-analysis of the deposited data

How the results depend on the processing

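Counts past both thresholds were 17 for class miRNA and 5 for class miRNA_proximal. With any fold above 0 they were 44 and 9, with a -log10 p of at least 5 they were 14 and 5, and leaving out 1 IP library gave 8 to 9 and 1 to 4. The pooled median folds of 1.55 and 0.69 became 2.57 and 3.01 among peaks with a -log10 p of at least 3, so the classes changed order. With peaks of at least 20 bases they were 1.48 and 0.65, and by library 1.34 and 1.79 for class miRNA and 0.33 and 1.504 for class miRNA_proximal. A longer required overlap, or a gap of up to 50 bases, kept each share found in both lists within its binomial interval. Of 17 microRNA gene and host RNA entries, 2 were higher and 12 lower. Higher calls became 4 with library size alone and 0 with DESeq2 (2 unadjusted, with no adjusted p for 5 of the 17). A filter of at least 30 reads in at least 2 libraries left 11 of the 17 entries to test, without MIR5100. Of these 11, edgeR called 0 higher (1 at an unadjusted p under 0.05) and 9 lower. Across the settings, lower calls ranged from 9 to 12. Over all genes the 1738 higher and 1188 lower calls became 6990 and 141 with library size alone, 678 and 254 with DESeq2 and 1100 and 857 with at least 30 reads. Library size alone turned 9 negative log2 folds positive, those of AGO1 (0.60), AGO3 (0.57), AGO4 (1.01), DGCR8 (0.96), PRKRA (1.21), TARBP2 (0.79), SNHG14 (0.999), MIR4435-2HG (0.98) and MIR142HG (0.039). Among microRNA genes and listed host RNAs, that setting also called MIR23A (1.32, edgeR adjusted p 0.0284) and SNHG14 (edgeR adjusted p 0.00375) higher. MIR142HG, MIR155HG and MIR22HG lost their lower calls there. MIR27A had an adjusted p of 0.0524 with at least 30 reads, and without IP replicate 1 or 2 its log2 fold was 3.91 or 1.71. No paired analysis was possible because there is 1 input library and its label carries no replicate number. The cause of these changes was not tested.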
